A study of Mus musculus with 12 samples.

Results

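Bap1KO cultures of mouse fibro-adipogenic progenitors (FAPs) were compared with WT cultures, gene by gene, within 3 shared culture media batches. The comparison used the 6 libraries labelled WT and Bap1KO, replicates 1 to 3 of each, out of 12 libraries in the series. Of 26556 genes with at least 1 read in these 6 libraries, 15380 had enough counts to be tested. Both groups were FAPs sorted from limb muscle as 7AAD-negative, lineage-negative, Vcam-negative and Sca1-positive cells and cultured in alpha-MEM containing 20% FBS. WT cultures received ethanol. Bap1KO cultures received 1 µM 4-hydroxytamoxifen (4-OHT) for deletion of Bap1 under Rosa-CreER, and the medium was replaced after 24 h. The source label of both groups names Prrx1Cre;Bap1f/f mice instead, a limb mesenchyme driver. No culture received 4-OHT with Bap1 intact, so the deletion and the drug cannot be told apart in any value below. The other 6 libraries carried 4-OHT and a vector for human SMN, in other media batches. They enter only the scaling between libraries and the estimate of spread. The labels do not say whether replicates came from separate animals, so p-values measure the spread between these samples, which may be technical.

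BAP1 is a nuclear deubiquitinase that works with ASXL partner proteins to remove the ubiquitin that Polycomb repressive complex 1 places on histone H2A. It also binds transcription regulators such as HCFC1 and FOXK proteins, and is known as a tumour suppressor. FAPs are the mesenchymal cells between muscle fibres: they make extracellular matrix, send signals to muscle stem cells and to the neuromuscular junction, and can form fat or fibrous tissue.

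Library totals ran from 57.6 to 68.2 M counts, and mitochondrial genes took 1.29 to 1.48% of counts in WT and 1.52 to 1.67% in Bap1KO. Values are CPM, the TMM-normalised counts scaled to a common library total, and they are given in the order of batches A, B and C, which are replicates 1, 2 and 3. The FAP markers Pdgfra, Ly6a (Sca1), Cd34, Dcn, Lum, Col1a1 and Col3a1 were all detected in both groups. Lum was the lowest of them, at 10.0, 3.96 and 2.74 CPM in WT and 7.55, 0.637 and 0.504 CPM in Bap1KO. The pericyte markers Rgs5, Notch3, Kcnj8 and Abcc9 were detected in every library too, and their sums are given below. Pax7, Myf5 and Myod1 of muscle stem cells, Cd3e of T cells and Krt14 of keratinocytes had no read in any of the 6 libraries. Of the other muscle markers, Myog and Ckm stayed at or below 0.177 CPM. Des was detected in every library, at 3.38 to 4.29 CPM in WT and 1.27 to 2.67 CPM in Bap1KO. The leukocyte gene Ptprc stayed at or below 0.0306 CPM. Other macrophage genes were detected in every library: Csf1r at 8.97 to 21.4, Lyz2 at 7.09 to 10.5 and Cd68 at 2.35 to 5.54 CPM. Epithelial and Schwann cell markers lay under 1 CPM in every library. The endothelial markers Pecam1, Cdh5, Kdr and Emcn did so too, and Tek stood at 1.70 to 5.59 CPM. In a principal component analysis of the 6 libraries, the first component (43.3% of the variance) placed WT at -42.2, -24.8 and -33.8 and Bap1KO at 15.3, 46.3 and 39.2. The second (25.6%) placed both libraries of batch B lowest (-31.6 and -35.9) and the Bap1KO library of batch A highest (42.9). The remaining libraries lay at 3.94 to 15.1.

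Counts at Bap1 itself were lower in Bap1KO, while most of the signal remained. Bap1 stood at 49.2, 49.3 and 51.5 CPM in WT and at 41.9, 39.1 and 39.0 CPM in Bap1KO. Every Bap1KO library lay below every WT library. The log2 fold change was -0.32 (SE 0.06, adjusted p = 0.00169), with per-batch log2 ratios of -0.23, -0.33 and -0.40. Whole-gene counts include transcripts that lack only a deleted exon, so this value does not measure the share of cells that lost the gene.

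Much of the measured transcriptome differed between the groups by edgeR's quasi-likelihood test with the media batch as a block, mostly by small amounts. At a Benjamini-Hochberg adjusted p under 0.05, which is what "called" means below, 4848 of 15380 genes (31.5%) differed. Of these, 2006 (13%) rose and 2842 (18.5%) fell in Bap1KO. Changes of at least 2-fold were found for 886 genes (5.76%), of which 213 (1.38%) rose and 673 (4.38%) fell, and 3036 called genes changed by less than 1.5-fold. The median log2 fold change over all tested genes was -0.003. The same test without the batch block called 1699 genes (11%), 597 higher (3.88%) and 1102 lower (7.17%), all of them among the 4848. Where a call was lost without the block, the adjusted p of that test is given below as the unblocked adjusted p. Every list in the text was put together with earlier results of these data known, so its counts describe it and are read against the shares above.

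Of the called genes, 4813 had the same sign in all 3 batches and 35 did not, as the blocked test selects for. The 3 WT and 3 Bap1KO values did not overlap for 5214 tested genes (33.9%), and 3632 of the called genes were among them. Among genes with a mean of at least 5 CPM, batch A had 56 genes at least 2-fold higher and 164 at least 2-fold lower in Bap1KO, against 39 and 248 in batch B and 37 and 236 in batch C. The direction differed with expression level: among tested genes averaging 1 to 10 CPM, 315 rose and 984 fell of 3647, while above 100 CPM 418 rose and 243 fell of 1943.

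The genes with the highest and lowest fold changes are named below among called genes that averaged at least 1 CPM in one group and moved the same way in all 3 batches. Within that limit the highest fold change was that of Nptx1, which also had the smallest p of all tested genes. Rarer genes, such as Bglap, whose fitted value was above that of Nptx1, and Foxl2 and Cyp3a13, whose values were within the range of the 12 highest, rest on few reads and were not ranked. Nptx1 encodes neuronal pentraxin 1, a secreted protein that gathers glutamate receptors at synapses. It stood at 1.31, 3.01 and 1.47 CPM in WT and at 17.0, 43.7 and 18.7 CPM in Bap1KO. Batch B was highest in both groups, and the ratio was nearly the same in each batch. The log2 fold change was 3.76 (SE 0.08, adjusted p = 5.51e-11). Tmem176a and Tmem176b, adjacent genes for membrane proteins, fell together. Tmem176a went from 65.9, 57.6 and 67.5 CPM to 10.9, 11.1 and 9.52 CPM, a log2 fold change of -2.59 (SE 0.10, adjusted p = 1.1e-08). Tmem176b had a log2 fold change of -2.56 (SE 0.09, adjusted p = 1.1e-08). For both genes the lowest WT library lay several-fold above the highest Bap1KO library.

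Of the other 11 of the 12 highest genes above 1 CPM in one group, several, such as Erv3 and Gli1, reached that level only in Bap1KO. The calcium-binding proteoglycan gene Spock2 rose from 1.14, 0.937 and 1.21 CPM to 4.35, 3.44 and 4.33 CPM, by 1.88 on the log2 scale (adjusted p = 6.64e-06). Rragd, which encodes a Rag GTPase of amino acid signalling to mTORC1, rose by 1.75 with per-batch ratios of 1.78, 1.73 and 1.72. The hair follicle gene Tchh rose by 2.25, the Hedgehog target Gli1 by 2.08, the histone gene Hist1h3b by 2.05, and Necab2, which encodes a neuronal calcium-binding protein, by 1.90. Erv3 (2.71) and Efhd1 (1.85) were called with and without the block. Angptl7 (2.15, unblocked adjusted p = 0.271), the lipocalin gene Lcn2 (1.97, unblocked adjusted p = 0.136) and Slitrk5 (1.88, unblocked adjusted p = 0.0763) were called only with it.

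The 12 lowest genes within the same limit were all called with and without the block. They were led by Fap, which encodes fibroblast activation protein, a surface protease of activated fibroblasts. Fap stood at 1.20, 1.36 and 1.29 CPM in WT and 0.206, 0.152 and 0.162 CPM in Bap1KO (log2 fold change -2.87, SE 0.38, adjusted p = 0.000148). Next came the matrix gene Ecm2 (-2.81), the B cell survival factor gene Tnfsf13b (-2.77), AI427809 (-2.64), the receptor phosphatase gene Ptprb (-2.63), the cytochrome P450 gene Cyp2d22 (-2.61) and Frem1, a basement membrane protein gene (-2.61). Flywch2 (-2.49), Rundc3a (-2.43) and the ectonucleotidase gene Enpp3 (-2.41) completed the group. All but the Tmem176 pair averaged under 6 CPM in WT.

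**Figure D1:**
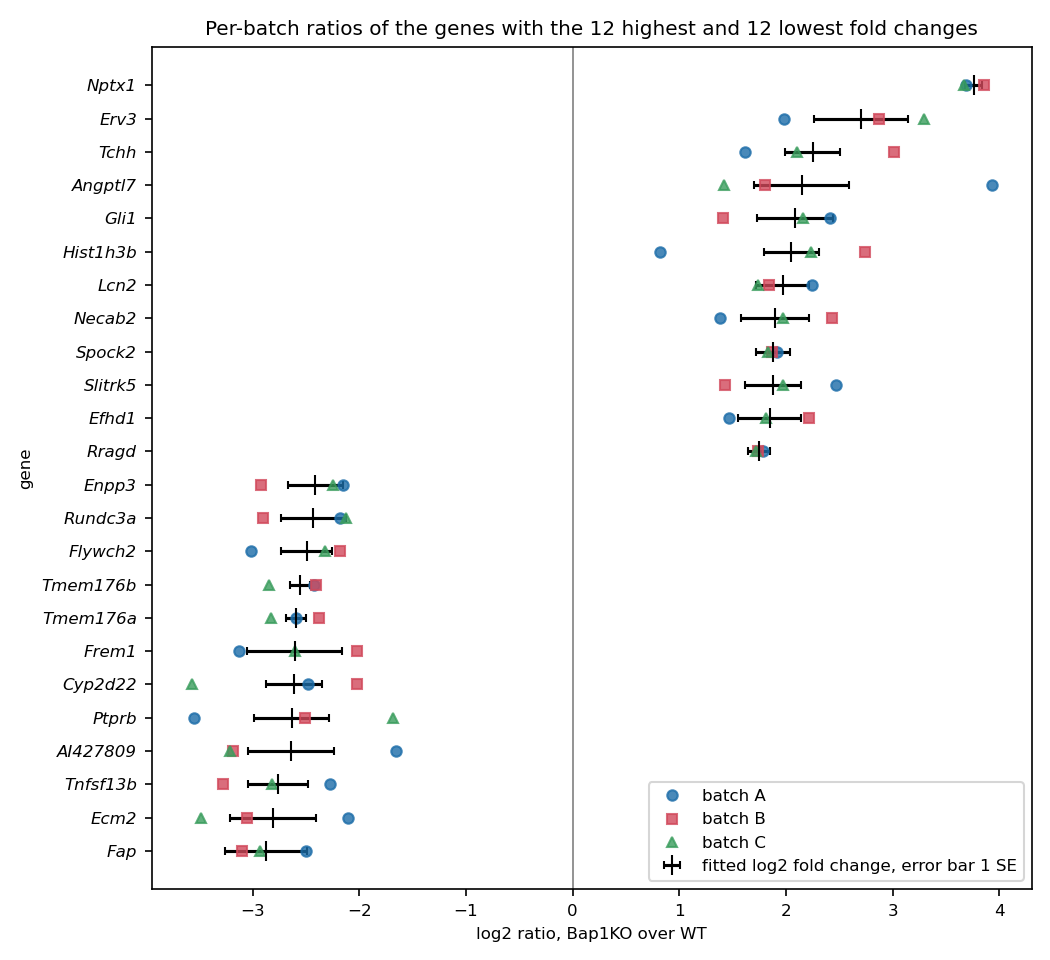
Log2 ratio of Bap1KO over WT (horizontal axis) in batch A, B and C for the called genes averaging at least 1 CPM in one group (vertical axis) with the 12 highest and 12 lowest fold changes; the black mark is the fitted log2 fold change and its bar 1 SE. All 3 batch points lie on the same side of 0 for each gene, closest together for Nptx1, Spock2 and Rragd and widest for Angptl7.

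The 5 most abundant genes that fell by 2-fold or more were Spp1, Sfrp1, Postn, Thbs2 and Cxcl14. Spp1, which encodes osteopontin, stood at 2856, 3245 and 3878 CPM in WT and 781, 1075 and 1012 CPM in Bap1KO (log2 fold change -1.80, SE 0.07, adjusted p = 3.38e-08). The highest Bap1KO library held less than the lowest WT library by a wide margin. Thbs2, which encodes thrombospondin 2, an inhibitor of angiogenesis, stood at 876, 987 and 982 CPM against 342, 383 and 347 CPM (-1.41, SE 0.06, adjusted p = 3.53e-08). Postn, which encodes the matrix protein periostin, fell by 1.36 (unblocked adjusted p = 0.0702), the Wnt antagonist Sfrp1 by 1.33 (unblocked adjusted p = 0.379) and the chemokine gene Cxcl14 by 1.09 (unblocked adjusted p = 0.254). The 5 most abundant genes that rose by 2-fold or more were Prl2c3 (1.70, unblocked adjusted p = 0.0853), Ndrg1 (1.37), the retinoic acid carrier gene Crabp2 (1.16, unblocked adjusted p = 0.0512), AC161119.1 (1.12) and Inhbb (1.07), which encodes an activin subunit. Prl2c3 belongs to a family of near-identical genes, so its reads may be shared with copies.

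**Figure D2:**
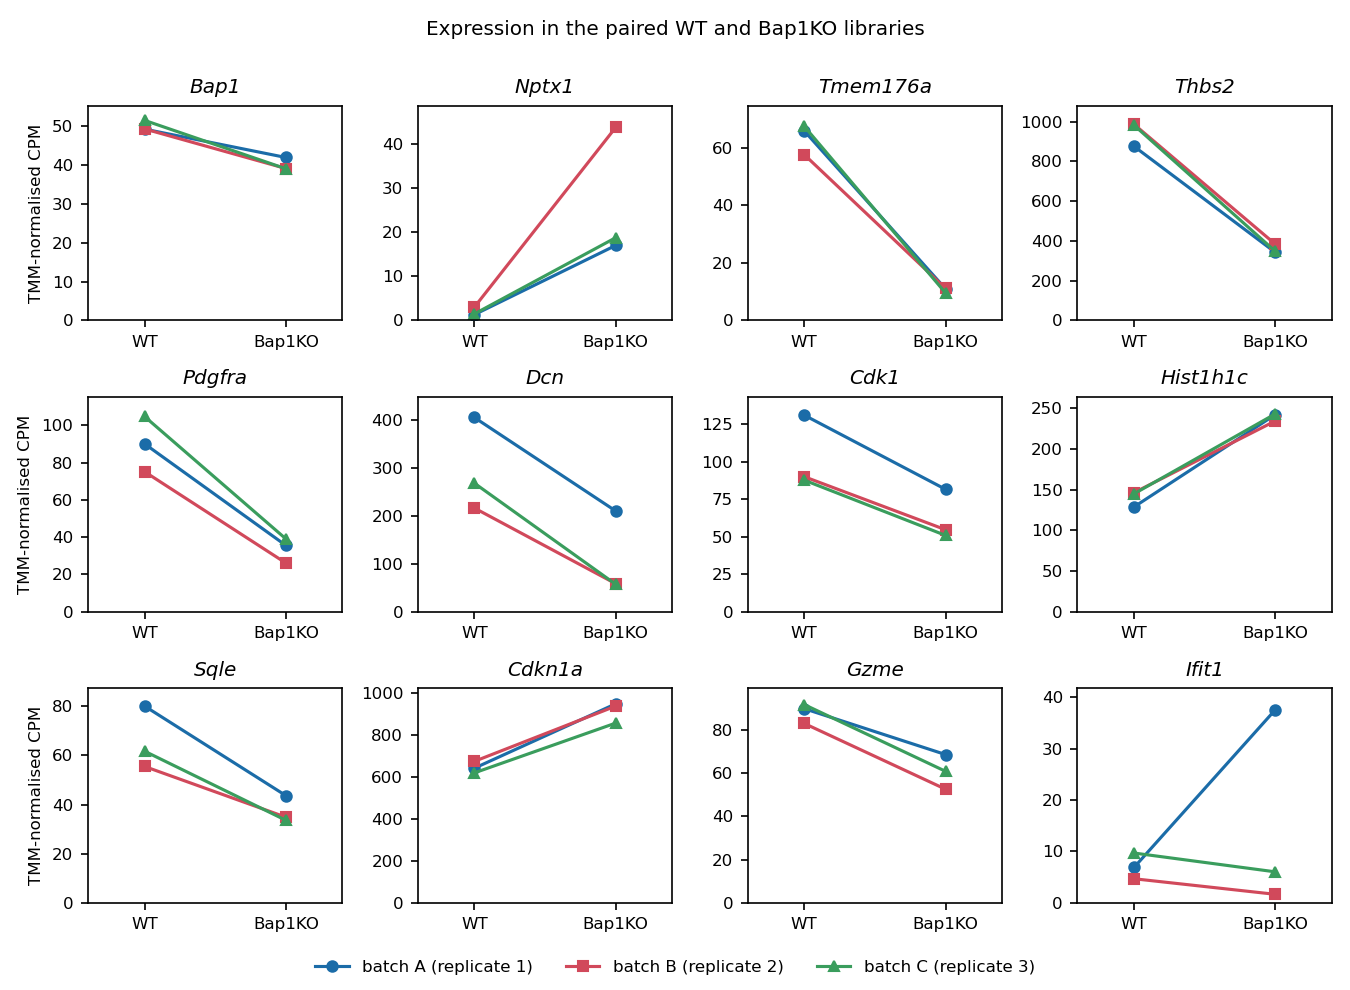
TMM-normalised CPM (vertical axis, from 0) of 12 genes in the WT and Bap1KO libraries (horizontal axis); each line joins the 2 libraries of 1 media batch. Lines run the same way in all 3 batches for each gene except Ifit1, where batch A rises from 6.89 to 37.6 CPM and batches B and C fall.

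Genes of cell division fell together, and the histone genes that are made in S phase went the other way. Of 42 tested genes of mitosis and the spindle, 40 fell and none rose, with a median log2 fold change of -0.58. Cdk1, the kinase that drives entry into mitosis, stood at 131, 90.0 and 87.7 CPM in WT and 81.6, 54.6 and 50.8 CPM in Bap1KO (-0.73, SE 0.06, adjusted p = 5.13e-06, unblocked adjusted p = 0.112). WT and Bap1KO values did not overlap for Cdk1, although batch A was the highest in both groups. The kinetochore gene Nuf2 fell by 0.78 on the log2 scale (unblocked adjusted p = 0.217), the cyclin gene Ccna2 by 0.77 (unblocked adjusted p = 0.234) and the topoisomerase gene Top2a by 0.74 (unblocked adjusted p = 0.227). Without the block only 1 of the 42 was called. For 41 of the 42 the sign was negative in all 3 batches, and for 15 the 3 WT values all lay above the 3 Bap1KO values. Those 15 of 42 are near the share of all tested genes whose values did not overlap in either direction (33.9%). Their summed CPM was 1761, 1260 and 1334 in WT and 1261, 865 and 881 in Bap1KO, highest in batch A and lowest in batch B in both groups.

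The promoters of several of these genes carry CCAAT boxes and the CHR element TTTGAA, a known pair of cell cycle promoter elements. Cdk1, Cdc20 and Kif11 are shown as examples with both kinds of letters upstream of the start site, in stretches of 218, 63 and 52 bases. Other genes of the list, such as Espl1 and Prc1, also held both and are not shown. The sequences are from RefSeq, build GRCm38.p6, written 5′ to 3′ in the direction of the gene, with CCAAT (or ATTGG) and TTTGAA (or TTCAAA) in capitals.
Cdk1, chr10:69352913-69353130, minus strand: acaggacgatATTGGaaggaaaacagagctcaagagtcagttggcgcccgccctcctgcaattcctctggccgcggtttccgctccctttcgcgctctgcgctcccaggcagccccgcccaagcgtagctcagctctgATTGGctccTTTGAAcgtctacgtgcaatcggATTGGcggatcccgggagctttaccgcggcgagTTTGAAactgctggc
Cdc20, chr4:118437344-118437406, minus strand: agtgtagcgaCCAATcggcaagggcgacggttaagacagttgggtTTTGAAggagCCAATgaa
Kif11, chr19:37376327-37376378, plus strand: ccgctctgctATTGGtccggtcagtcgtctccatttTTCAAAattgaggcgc
Both strands were searched in the 250 bases upstream of each start site, where these motifs can share at most 1 base. CCAAT stood in 75.7% of 37 windows of the mitosis genes (34 of the 42 genes matched) against 35.1% of 14135 windows of all tested genes, and TTTGAA in 37.8% against 10.6%. These letters describe the windows and do not show binding. Cdc20, which encodes an activator of the anaphase-promoting complex, stood at 69.7, 51.3 and 48.9 CPM in WT and 46.4, 32.4 and 33.2 CPM in Bap1KO. Its log2 fold change was -0.60 (adjusted p = 3.28e-05, unblocked adjusted p = 0.0765). The spindle motor gene Kif11 stood at 27.5, 15.9 and 19.5 CPM against 20.3, 9.54 and 11.3 CPM (-0.65, adjusted p = 0.000813, unblocked adjusted p = 0.318). The groups overlapped for Kif11 and not for Cdc20.

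Of 46 tested genes of DNA replication, 28 fell and none rose (median -0.27), and without the block edgeR called none of them, with 7 at an unadjusted p under 0.05 (36 with the block). Mcm10, which acts at the replication fork, stood at 14.6, 10.6 and 11.5 CPM in WT and 10.8, 6.55 and 7.18 CPM in Bap1KO (-0.60, SE 0.10, adjusted p = 0.000938, unblocked adjusted p = 0.271). The groups overlapped through batch A, which was highest in both. The primase gene Prim1 fell by 0.57 (unblocked adjusted p = 0.302). The number that fell was 14 without replicate 2 and 16 without replicate 3. CCAAT stood in 57.8% of 45 promoter windows of these genes, and either of the E2F letters TTTCCCGC and TTTGGCGC in 13.3%, against 2.31% over all tested genes.

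Of 69 listed replication-dependent histone genes, 34 had enough counts to be tested. Of these 34, 21 rose and none fell, 15 of them by 2-fold or more, with a median of 0.75. Without the block 12 rose. With a filter of 1 CPM in 3 libraries, which leaves out low genes, 14 rose. Hist1h1c, a linker histone gene, stood at 129, 146 and 145 CPM in WT and 242, 234 and 243 CPM in Bap1KO (0.78, adjusted p = 1.01e-05). The summed CPM of the 34 genes was 305, 383 and 341 in WT and 515, 578 and 551 in Bap1KO, so the groups did not overlap. Hist1h4n rose by 1.71 (SE 0.29, adjusted p = 0.000893). These transcripts normally end in a stem-loop without a poly(A) tail, and whether RNA was selected by poly(A) is not given in the sources used here. Histone genes are near-identical copies of each other, so reads may be split among them.

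Among 27 tested targets of p53, 13 rose and 4 fell (median 0.14), and without the block 7 rose and 2 fell. Cdkn1a, which encodes the cell cycle inhibitor p21, stood at 642, 674 and 620 CPM in WT and 949, 938 and 857 CPM in Bap1KO, with no overlap (0.50, adjusted p = 8.34e-05). The growth factor gene Gdf15 stood at 17.0, 26.6 and 15.9 CPM against 34.8, 50.5 and 33.9 CPM (1.01, SE 0.09, adjusted p = 6.02e-06, unblocked adjusted p = 0.0513). The ribonucleotide reductase subunit gene Rrm2b rose by 0.59, the growth arrest gene Gadd45a by 0.55 (unblocked adjusted p = 0.0529) and Mdm2, whose product degrades p53, by 0.30 (unblocked adjusted p = 0.152). Sesn1, a stress-induced inhibitor of mTORC1 signalling, went against these and fell by 0.77. Of 13 tested senescence and cell cycle inhibitor genes, 9 fell and none rose, 2 of them called without the block. Cdkn1a was not on this list, which also held genes that are not inhibitors, such as Lmnb1 and Hmgb2. The count therefore gives no direction for senescence or for cell cycle inhibitors as a whole. Lmnb1, which encodes lamin B1, fell by 0.79 (SE 0.07, adjusted p = 7.27e-06), and Cdkn2d, which encodes the inhibitor p19, by 1.02 (SE 0.13, adjusted p = 8.33e-05).

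Enzymes of sterol synthesis fell as a group. Of 21 tested genes of the pathway, 16 fell and 1 (Ggps1) rose, with a median of -0.38, and 8 of the lower calls stood without the block. Sqle, which encodes squalene epoxidase, stood at 80.1, 55.5 and 61.7 CPM in WT and 43.6, 34.9 and 33.6 CPM in Bap1KO (-0.81, SE 0.07, adjusted p = 6.02e-06). In 17 of the 21 genes, Sqle among them, all WT values lay above all Bap1KO values. Over all tested genes, 33.9% did not overlap in either direction. The mevalonate pathway genes Pmvk (-0.94) and Fdps (-0.78) and the demethylase gene Cyp51 (-0.80) fell by similar amounts, each called without the block as well. Without replicate 2 or replicate 3 the number that fell was 11 and 9. Hmgcs1, the enzyme before the rate-limiting step, was at 76.2, 60.7 and 70.8 CPM against 70.7, 45.4 and 53.5 CPM (-0.31, adjusted p = 0.00448, unblocked adjusted p = 0.342). The groups overlapped for Hmgcs1, and its call was lost without replicate 2 or 3 (adjusted p = 0.0684 and 0.0743).
The Hmgcs1 promoter is shown, with TCACCCCAC in capitals, because it was the only window of the 19 from the pathway (16 of the 21 genes matched) that held the sterol regulatory element letters TCACNCCAC (5.26%, against 0.998% over all tested genes). It is from RefSeq, build GRCm38.p6, written 5′ to 3′.
Hmgcs1, chr13:119690184-119690252, plus strand: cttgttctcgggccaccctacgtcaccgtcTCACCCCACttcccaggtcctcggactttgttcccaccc
CCAAT, also a partner motif of sterol promoters, stood in 78.9% of these 19 windows.

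Of 22 tested genes of sterol uptake, efflux and control, 8 fell and 3 rose, and only 1 was called without the block. Without replicate 2 or replicate 3 the number that fell was 3. The sterol carrier gene Stard4 fell by 0.80 (unblocked adjusted p = 0.0608) and Insig1, which retains the SREBP complex in the endoplasmic reticulum, by 0.51 (unblocked adjusted p = 0.0621). The cholesterol exporter gene Abcg1 rose by 0.77 (unblocked adjusted p = 0.179). Of 11 tested fatty acid synthesis genes, 7 fell and none rose, 3 of them without the block. The desaturase genes led: Fads2 stood at 99.6, 68.4 and 82.2 CPM in WT and 50.2, 31.8 and 40.6 CPM in Bap1KO (-1.04, SE 0.07, adjusted p = 8.98e-07), and Fads1 fell by 0.85 (SE 0.06, adjusted p = 2.46e-06). The elongase gene Elovl6 fell by 0.86 (SE 0.10, adjusted p = 5.28e-05).

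Genes that define FAPs and fibroblasts were lower in Bap1KO. Of 27 tested, 19 fell and 2 rose (median -0.46), and without the block 4 fell and 2 rose. Pdgfra, the growth factor receptor used to mark FAPs, stood at 90.0, 75.1 and 105 CPM in WT and 35.5, 26.0 and 39.0 CPM in Bap1KO (-1.43, SE 0.07, adjusted p = 2.05e-07). No Bap1KO library reached the lowest WT library for Pdgfra. Ly6a, which encodes the Sca1 protein used in the sort, stood at 919, 889 and 830 CPM against 862, 648 and 625 CPM (-0.32, adjusted p = 0.0265, unblocked adjusted p = 0.381), and its call was lost without replicate 2 or 3 (adjusted p = 0.214 and 0.199). The collagen-binding proteoglycan gene Dcn stood at 405, 216 and 268 CPM against 210, 58.2 and 56.9 CPM (-1.69, SE 0.18, adjusted p = 2.6e-05, unblocked adjusted p = 0.136). For Dcn batch A fell less than the others, by 0.95 on the log2 scale against 1.89 and 2.23. Sema3c, which encodes a secreted semaphorin, fell by 1.28. Pcolce2, a procollagen C-proteinase enhancer gene of FAP subsets, went the other way and rose by 1.05 (SE 0.08, adjusted p = 3.16e-06). In bulk RNA, fewer cells of a type and less RNA per cell cannot be told apart. The number of FAP genes that fell was 12 without replicate 2.

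Small leucine-rich proteoglycans, which bind collagen fibrils, were lower for 7 of 9 tested genes (median -0.60), with 1 called without the block and 3 without replicate 2 or replicate 3. Ogn, which encodes osteoglycin, stood at 13.5, 12.7 and 11.7 CPM in WT and 4.76, 1.74 and 2.05 CPM in Bap1KO (-2.26, SE 0.21, adjusted p = 1.35e-05). Of 47 tested matrix glycoproteins 23 fell and 4 rose (median -0.30), and 7 and 1 without the block, with 15 lower without replicate 2 or replicate 3. Mfap2, a microfibril protein gene, fell by 2.03 (SE 0.17, adjusted p = 4.91e-06), and Sparcl1 by 1.68. Among matrix genes of the basal lamina, the laminin chains Lama1 and Lama4 fell by 0.79 and 0.63 (unblocked adjusted p = 0.0874 and 0.256) and Lama5 by 0.56. Agrn, which encodes the neuromuscular junction organiser agrin, rose by 0.37 (adjusted p = 0.0418, unblocked adjusted p = 0.188), a call lost without replicate 1 or 3 (adjusted p = 0.359 and 0.057).

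Collagen chains moved both ways: of 28 tested, 11 fell and 7 rose, or 2 and 2 without the block. Col24a1, a minor fibrillar chain, stood at 3.13, 3.04 and 3.20 CPM in WT and 0.870, 0.622 and 0.809 CPM in Bap1KO (-2.03, SE 0.25, adjusted p = 7.4e-05), and Col15a1 fell by 1.52. The major fibrillar chains Col1a1, Col1a2 and Col3a1 fell by 0.44, 0.52 and 0.71 (unblocked adjusted p = 0.228, 0.316 and 0.333). The network-forming basement membrane chains Col4a1, Col4a2 and Col4a5 rose by 0.38, 0.26 and 0.46 (unblocked adjusted p = 0.0916, 0.183 and 0.13, and for Col4a2 adjusted p = 0.059 without replicate 3). Col10a1, a chain of hypertrophic cartilage, rose by 1.28 and Col27a1 by 0.87. The median ratio over the 28 chains was 0.13 in batch A, -0.31 in batch B and -0.29 in batch C, so batch A differed in sign. Without replicate 2 or replicate 3 the number that fell was 7.

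By number of calls, matrix enzymes and receptors followed mostly downward. Of 19 tested crosslinking and processing genes 8 fell and 2 rose, and without the block 1 rose and none fell. The lower calls numbered 4, 3 and 4 without replicate 1, 2 and 3. Of 28 tested proteases and inhibitors 13 fell and 5 rose (3 without replicate 3), 2 and 2 without the block, among them Adamts9, a proteoglycan-cleaving protease gene, which fell by 0.95. The summed CPM of these 28 genes was nevertheless higher in Bap1KO in each batch. It was 11630, 13750 and 14270 in WT and 12380, 15420 and 15750 in Bap1KO. Of 18 tested integrin subunits 8 fell and 2 rose, and without the block 2 fell. Without replicate 3, 5 fell and 1 rose. The collagen-binding subunit gene Itga2 stood at 2.59, 2.86 and 3.78 CPM in WT and 0.516, 1.09 and 0.846 CPM in Bap1KO (-1.93, SE 0.22, adjusted p = 5.35e-05). Itgb3, a subunit of the osteopontin and vitronectin receptor, fell by 1.19 (SE 0.13, adjusted p = 2.82e-05). Of 20 tested contractile genes of the smooth muscle type, 15 fell and 2 rose (median -0.25), 2 without the block. Actg2 fell by 0.49 (unblocked adjusted p = 0.0928) and Acta2, the actin of myofibroblasts, by 0.30 (unblocked adjusted p = 0.349, and adjusted p = 0.155 and 0.0526 without replicate 1 and 3). Their number dropped to 5 without replicate 1 and 7 without replicate 3.

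**Figure D3:**
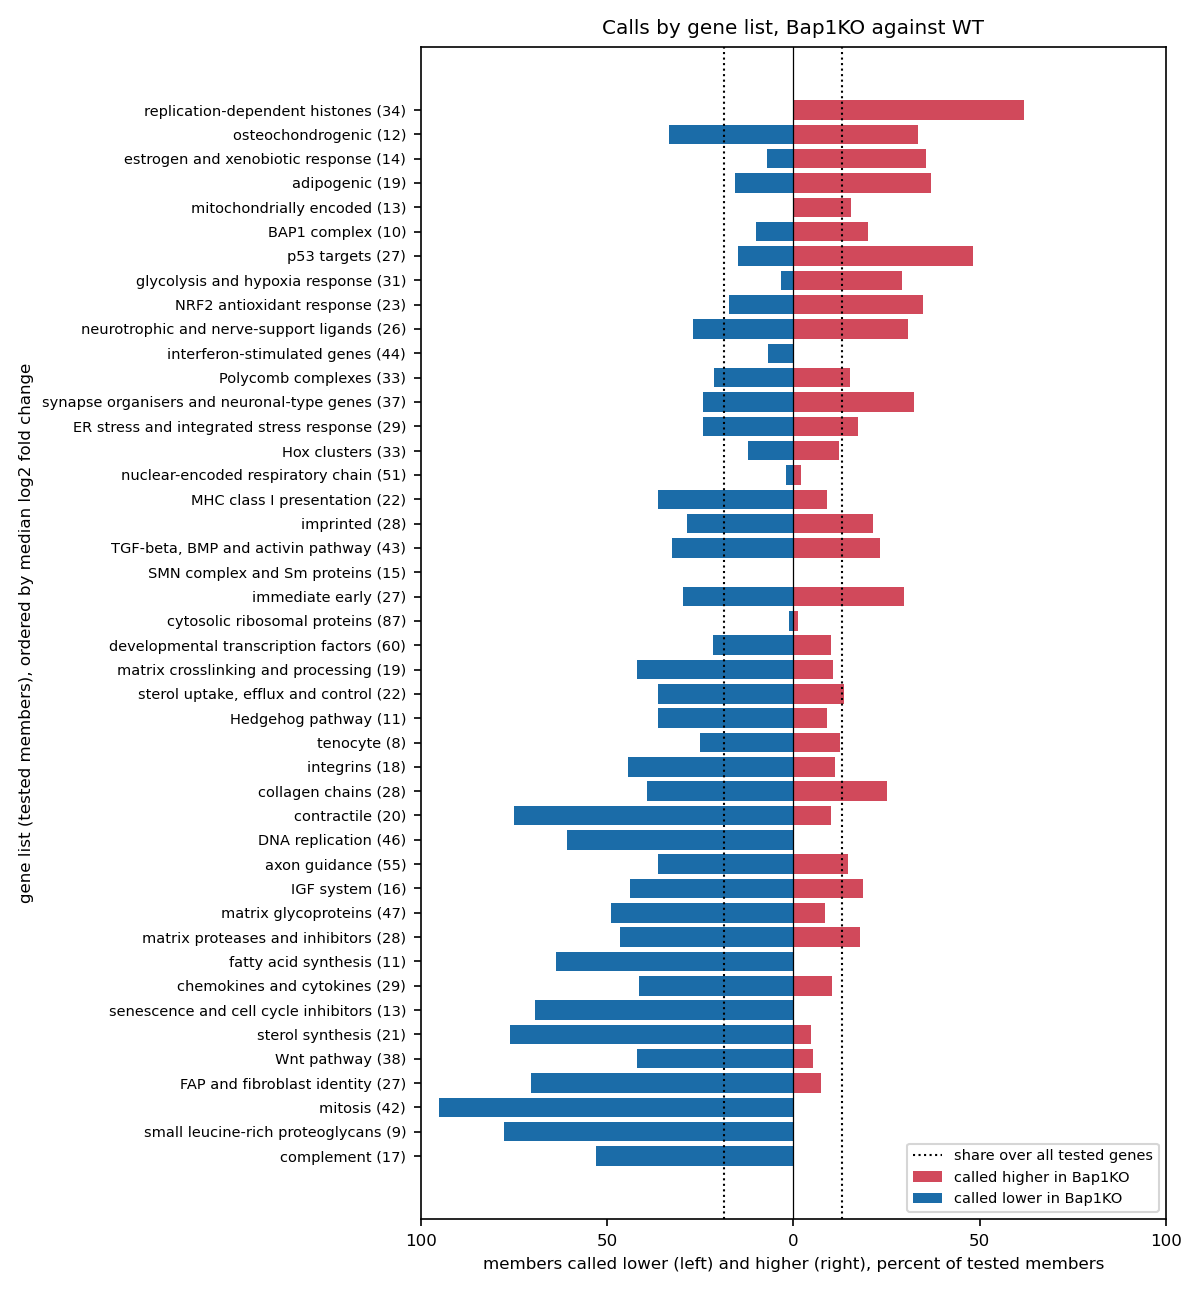
Percent of the tested members of each gene list with at least 8 tested members (vertical axis, number of tested members in brackets) called lower (left) or higher (right) in Bap1KO; dotted lines mark the shares over all tested genes, 18.5% lower and 13% higher. Among the lists shown, mitosis, proteoglycan, sterol synthesis and contractile genes extend farthest to the left, and histone genes farthest to the right.

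In the TGF-beta, BMP and activin pathway, 14 of 43 tested genes fell and 10 rose, or 5 and 6 without the block. The ligand genes Inhbb and Gdf10 went opposite ways. Inhbb stood at 53.6, 61.8 and 68.1 CPM in WT and 119, 117 and 148 CPM in Bap1KO (1.07, SE 0.08, adjusted p = 3.92e-06). Gdf10 fell by 1.76 (unblocked adjusted p = 0.105), and the TGF-beta receptor gene Tgfbr1 by 0.87. Tgfbi, a matrix protein induced by TGF-beta, stood at 85.7, 46.0 and 68.6 CPM against 27.2, 13.5 and 16.8 CPM (-1.82, SE 0.10, adjusted p = 3.07e-07). The mediators Smad2 and Smad3 rose by 0.31 and 0.35, the latter not without the block (unblocked adjusted p = 0.264).

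In the Wnt pathway, 16 of 38 tested genes fell and 2 rose (median -0.46), 7 and none without the block. The secreted Wnt antagonist gene Frzb stood at 7.82, 8.28 and 9.51 CPM in WT and 3.83, 2.93 and 3.78 CPM in Bap1KO (-1.28, SE 0.16, adjusted p = 0.000116), and Sfrp4, of the same family, fell by 1.79. For Sfrp1, with 1261, 561 and 1220 CPM in WT and 822, 150 and 437 CPM in Bap1KO, the drop was least in batch A and the groups overlapped. Of 11 tested Hedgehog pathway genes, 4 fell and 1, the target gene Gli1, rose, and without the block none fell and 1 rose. Gli1 stood at 0.301, 0.166 and 0.429 CPM against 1.64, 0.455 and 1.94 CPM. The co-receptor genes Gas1 (-1.63, unblocked adjusted p = 0.17) and Cdon (-0.93, unblocked adjusted p = 0.154) and the antagonist Hhip (-1.35, unblocked adjusted p = 0.07) fell. Of 16 tested genes of the IGF system 7 fell and 3 rose, 2 and 1 without the block. Irs2, an adaptor of the insulin and IGF receptors, fell by 0.78 (SE 0.12, adjusted p = 0.000398).

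Genes through which mesenchymal cells can address nerves changed in both directions. Of 26 tested neurotrophic and nerve-support genes 8 rose and 7 fell, and without the block 1 rose and 3 fell. Without replicate 2 or replicate 3 the number that rose was 4. Ptn, which encodes the neurite growth factor pleiotrophin, stood at 64.5, 18.3 and 13.8 CPM in WT and 17.8, 3.41 and 2.37 CPM in Bap1KO (-2.23, SE 0.18, adjusted p = 4.1e-06, unblocked adjusted p = 0.132). Batch A was far higher than the others in both groups, and the ratio was similar in each. The motor neuron survival factor gene Ctf1 fell by 1.69 (SE 0.26, adjusted p = 0.000478). The neurotrophin receptor gene Ntrk2 rose by 1.45 (SE 0.19, adjusted p = 0.000123).

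Of 55 tested axon guidance genes 20 fell and 8 rose (median -0.28), 11 and 5 without the block. The ephrin gene Efna1 fell by 1.96 and the semaphorin gene Sema6b by 1.52, while Plxna4, a semaphorin receptor gene, rose from 2.81, 1.60 and 2.54 CPM to 8.24, 5.49 and 8.89 CPM (1.71, SE 0.13, adjusted p = 3.98e-06). Of 37 tested genes for synapse organisers and neuronal-type proteins 12 rose and 9 fell, but only 1 and 5 without the block. Besides Nptx1, the neurofilament gene Nefl rose by 1.77 (unblocked adjusted p = 0.0588). Cend1, a neuronal cell cycle exit gene, fell from 6.32, 7.18 and 5.50 CPM to 1.90, 1.15 and 1.29 CPM (-2.14, SE 0.20, adjusted p = 1.34e-05).

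Granzymes are serine proteases, best known from cytotoxic lymphocytes, and the series title names granzyme E. Gzme stood at 89.7, 82.9 and 91.6 CPM in WT and 68.5, 52.5 and 60.8 CPM in Bap1KO. All 3 Bap1KO libraries lay below all 3 WT libraries, and the per-batch log2 ratios were -0.39, -0.66 and -0.59. The log2 fold change was -0.55 (SE 0.13, adjusted p = 0.00704, unblocked adjusted p = 0.53), and the call was lost without replicate 2 or replicate 3 (adjusted p = 0.0645 and 0.0637). Gzmd had the same log2 fold change, -0.55 (adjusted p = 0.0183, unblocked adjusted p = 0.563, and 0.117 without replicate 2 and 0.085 without replicate 3). Gzmd and Gzme are close copies, so their reads may be shared. The other 2 tested members of the list were not called.

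Innate immune genes were lower in part and, for the interferon response, split by batch. Of 17 tested complement genes 9 fell and none rose (median -0.72), with 2 called without the block. Serping1, the C1 inhibitor gene, stood at 39.5, 28.0 and 48.6 CPM in WT and 15.1, 4.49 and 10.9 CPM in Bap1KO (-2.04, SE 0.18, adjusted p = 6.71e-06, unblocked adjusted p = 0.088). Of 29 tested chemokine and cytokine genes 12 fell and 3 rose (1 without replicate 1), 3 and 1 without the block. Il15 stood at 2.98, 3.35 and 3.25 CPM against 0.870, 0.803 and 0.791 CPM (-1.95, SE 0.20, adjusted p = 2.27e-05), and Il18 fell by 2.08. Of 22 tested MHC class I presentation genes 8 fell and 2 rose, 2 and none without the block, and H2-M3, a nonclassical class I gene, fell by 0.95. Without replicate 2 or replicate 3 the number of presentation genes that fell was 3.

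The interferon-stimulated genes went up in batch A and down in batches B and C. The median log2 ratio of the 44 tested genes was 1.45 in batch A, -1.02 in batch B and -0.56 in batch C. In batch A 40 of them were positive, while 43 were negative in batch B and 42 in batch C. The summed CPM of the list was 642, 530 and 687 in WT and 1190, 344 and 499 in Bap1KO, so the Bap1KO library of batch A stood apart. Over the 3 batches 3 genes were called, all lower, and without replicate 1 the number was 21. Ifit1, which encodes an inhibitor of viral translation, stood at 6.89, 4.68 and 9.69 CPM in WT and 37.6, 1.65 and 6.03 CPM in Bap1KO (log2 fold change 0.15, SE 0.55, adjusted p = 0.866). Ifit3 stood at 13.0, 8.36 and 18.8 CPM against 62.0, 3.79 and 13.3 CPM, with the same pattern. Iigp1, Oasl2, Gbp3 and Usp18 had log2 ratios of 1.86 to 2.57 in batch A and -1.66 to -1.36 in batch B. Of the 11 genes with a mean of at least 5 CPM whose ratios exceeded 1 in 1 batch and lay below -1 in another, 10 were on this list, and the other was Trim30d. Apobec3, a restriction factor gene, did not share the split: its ratios were -1.96, -2.06 and -2.09 (log2 fold change -2.04, SE 0.16, adjusted p = 4.42e-06).

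**Figure D4:**
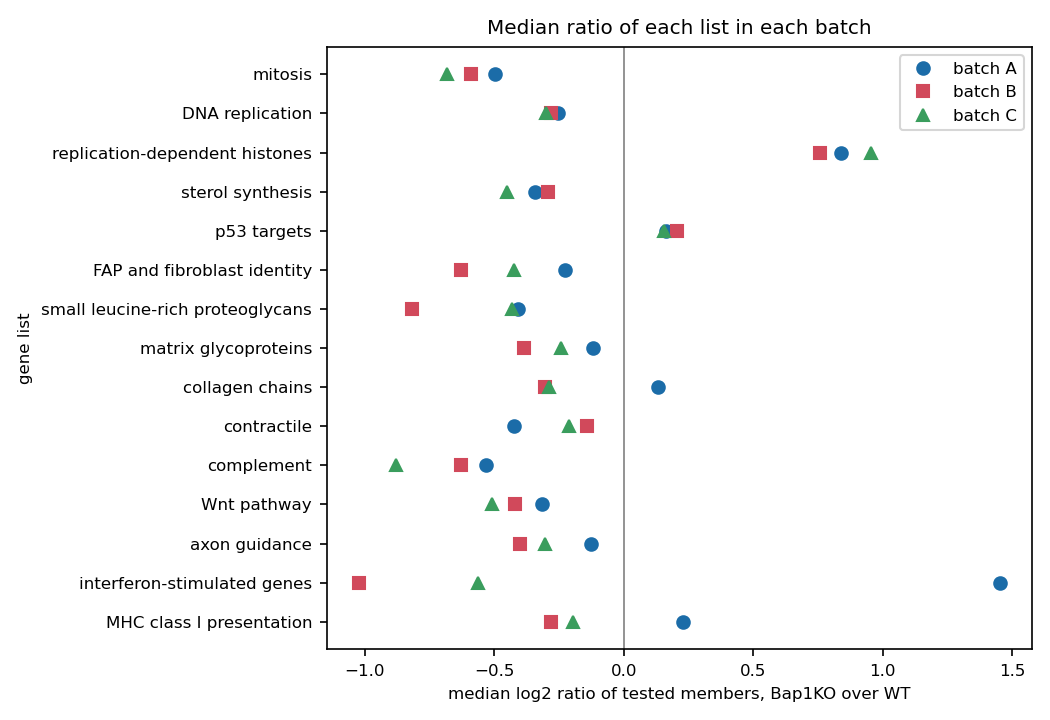
Median log2 ratio of Bap1KO over WT (horizontal axis) over the tested members of 15 gene lists (vertical axis) in batches A, B and C. The interferon-stimulated genes span from -1.02 in batch B to 1.45 in batch A, collagen and MHC class I genes also cross 0, and the other lists keep 1 sign.

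The share of called genes ran from 2.3% of ribosomal protein genes to 59.3% of immediate early genes in the metabolic and stress lists, beside 31.5% of all tested genes. Of 31 tested glycolysis and hypoxia genes 9 rose and 1 fell, 2 and none without the block, and 5 and 4 rose without replicate 1 and 3. Ndrg1, a hypoxia-induced gene, stood at 27.4, 14.9 and 24.0 CPM in WT and 77.1, 37.2 and 58.2 CPM in Bap1KO (1.37, SE 0.08, adjusted p = 7.37e-07). The glycolytic enzyme gene Gpi1 rose by 0.36, and the lactate exporter gene Slc16a3 fell by 0.68 (unblocked adjusted p = 0.0997). Of 51 nuclear-encoded respiratory chain genes 1 rose and 1 fell, and of 87 cytosolic ribosomal protein genes likewise 1 and 1, far under the shares over all genes. Of 23 tested antioxidant genes of the NRF2 response 8 rose and 4 fell, and 1 and none without the block. Without replicate 2 or replicate 3, 5 rose, and without replicate 1 or replicate 2, 2 fell. In this list Hmox1, which encodes heme oxygenase 1, rose by 0.72 (SE 0.06, adjusted p = 4.95e-06, unblocked adjusted p = 0.0705). In ER stress and the integrated stress response 5 of 29 rose and 7 fell, 1 and 3 without the block, with Atf3, a stress transcription factor gene, higher by 0.75. Among immediate early genes 8 of 27 rose and 8 fell, 3 and 1 without the block. The lower calls in each of these 2 lists numbered 3 without replicate 2 and 4 without replicate 3, and those in the ER stress list also 3 without replicate 1. The higher calls were 5 among immediate early genes without replicate 2 and 3 in the ER stress list without replicate 3. Since 4-OHT binds estrogen receptors, estrogen and xenobiotic response genes were listed beside these: 5 of 14 tested rose and 1 fell, none of them called without the block and 3 higher without replicate 2 or replicate 3. Cyp1b1 stood at 184, 266 and 252 CPM against 232, 312 and 324 CPM (0.31, adjusted p = 0.00114, unblocked adjusted p = 0.689). The part of 4-OHT in any result was not tested.

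Genes of the BAP1 complex and of the Polycomb complexes were called at 30% and 36.4%, against 31.5% of all tested genes. Among 10 tested genes of the BAP1 complex, Bap1 fell and Asxl2 (0.44, SE 0.11, adjusted p = 0.00752, unblocked adjusted p = 0.0561) and Mbd5 (0.31, unblocked adjusted p = 0.171) rose. Asxl2 encodes an ASXL partner of BAP1, and stood at 14.7, 13.3 and 16.2 CPM in WT and 20.9, 18.1 and 21.1 CPM in Bap1KO without overlap. Mbd5 was not called without replicate 1 or replicate 3 (adjusted p = 0.0899 and 0.17). Of 33 tested Polycomb genes 7 fell and 5 rose, 3 and 1 without the block. Without replicate 1, 2 and 3 the number that fell was 4, 5 and 4, and the number that rose was 3 each time. Cbx7, a chromodomain subunit of Polycomb repressive complex 1, stood at 1.69, 1.60 and 1.96 CPM against 0.737, 0.5 and 0.917 CPM (-1.31, SE 0.26, adjusted p = 0.00238). Its paralogue Cbx6 stood at 144, 112 and 108 CPM against 95.4, 77.7 and 70.8 CPM (-0.58, SE 0.06, adjusted p = 1.73e-05). The catalytic gene Ezh2 of complex 2 fell by 0.30 (unblocked adjusted p = 0.253, and adjusted p = 0.0669 and 0.0742 without replicate 1 and 3).

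Hox genes and developmental transcription factors, known targets of Polycomb, were called at 24.2% and 31.7%, against 31.5% of all tested genes. Of 33 tested Hox genes 4 rose and 4 fell, with 1 call without the block. Without replicate 1, 2 and 3, 4, 2 and 2 rose and 2, 2 and 1 fell. Hoxa5 fell by 0.67 (SE 0.15, adjusted p = 0.00488), and Hoxb9 rose by 0.43 (unblocked adjusted p = 0.318). Of 60 tested developmental transcription factors 13 fell and 6 rose, 4 and 2 without the block, and 8 and 4 without replicate 2. Sox11, a SoxC factor of progenitors, stood at 24.8, 22.3 and 18.5 CPM in WT and 9.94, 9.56 and 7.09 CPM in Bap1KO (-1.30, SE 0.09, adjusted p = 1.75e-06). Of 28 tested imprinted genes 8 fell and 6 rose, 1 and 1 without the block, 5 lower without replicate 2, and 3 and 3 without replicate 3. Peg3, a paternally expressed zinc finger gene, stood at 26.6, 34.8 and 24.3 CPM against 13.8, 15.6 and 10.8 CPM (-1.09, SE 0.12, adjusted p = 4.39e-05, unblocked adjusted p = 0.062), and its neighbour Usp29 fell by 2.35 (SE 0.36, adjusted p = 0.000453). None of 15 tested SMN complex and Sm protein genes was called by edgeR with or without the block, by DESeq2 or by limma voom, all on the tested genes. With no filter on low counts edgeR with the block called 1 of them lower. With the block 2 of them had an unadjusted p under 0.05, and without replicate 1 one was called higher. Smn1 had a log2 fold change of -0.03 (adjusted p = 0.828).

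Genes of the lineages FAPs can enter changed both ways. Of 19 tested adipogenic genes 7 rose and 3 fell, 2 and none without the block, and 4 rose without replicate 3 and none fell without replicate 2. The lipid droplet gene Plin4 stood at 2.72, 3.39 and 4.21 CPM in WT and 6, 7.09 and 10.7 CPM in Bap1KO (1.18, SE 0.12, adjusted p = 2.33e-05), and the fatty acid transporter gene Cd36 rose by 1.01 (unblocked adjusted p = 0.275). The master regulator gene Pparg was not called (-0.03, adjusted p = 0.871). Of 12 osteochondrogenic genes 4 rose and 4 fell, 2 and 3 without the block. Mgp, which encodes the calcification inhibitor matrix Gla protein, stood at 331, 345 and 297 CPM against 98.5, 91.7 and 78.6 CPM (-1.86, SE 0.10, adjusted p = 3.6e-07). Of 8 tested tendon cell genes 1 rose and 2 fell (37.5%, beside 31.5% of all tested genes), 1 and none without the block. Their median log2 ratio was 0.117 in batch A, -0.465 in batch B and -0.316 in batch C. Scx, the tendon transcription factor gene, rose by 1.09 (SE 0.12, adjusted p = 4.09e-05), and the tendon surface gene Tnmd fell by 0.78 (unblocked adjusted p = 0.172). Of 20 listed epithelial and keratin genes 6 were tested. Of these 6, 4 rose and none fell, and 3 rose without the block. With no filter on low counts 1 gene of the list was called lower. The summed CPM of the 6 was 85.1, 117 and 95.3 in WT and 76.7, 146 and 121 in Bap1KO, so it fell in batch A. Krt7 stood at 3.04, 3.87 and 2.73 CPM in WT and 8.91, 9.64 and 12.4 CPM in Bap1KO (1.68, SE 0.16, adjusted p = 1.24e-05), and Krt80 rose by 1.24. Epcam, Cdh1, Krt5 and Krt14, which define epithelial cells, stayed at or below 0.144 CPM in all 6 libraries.

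Markers of other cells moved in places as well. Among 6 tested pericyte genes 4 fell and 1 rose, 1 and none without the block, with the potassium channel pair Kcnj8 (-1.84, unblocked adjusted p = 0.169) and Abcc9 (-1.67) lower. The 4 defining pericyte markers summed to 15.6 to 19.2 CPM in WT and 12.1 to 17.2 CPM in Bap1KO. Of 6 tested endothelial genes 1 rose and 1 fell (median 0.37), and without the block only the latter was called. The receptor gene Tek fell by 1.03, and the VEGF receptor gene Flt1 rose by 0.57 (adjusted p = 0.0224, unblocked adjusted p = 0.424, and 0.157 without replicate 2). Pecam1 and Cdh5 lay under 1 CPM in all 6 libraries. All 6 tested macrophage and leukocyte genes were called, 3 higher and 3 lower, and without the block 1 was, as lower. Cd14, a co-receptor gene for lipopolysaccharide, fell by 1.34, and the MHC class II gene H2-Ab1 by 0.63 (unblocked adjusted p = 0.396). Cd68 rose by 0.65 (unblocked adjusted p = 0.0935), and the invariant chain gene Cd74 by 1.5 (unblocked adjusted p = 0.114, and adjusted p = 0.207 and 0.201 without replicate 1 and 3). Without replicate 1 or replicate 3 the macrophage calls were 2 higher and 2 lower. Of 6 tested Schwann genes 2 fell and 1 rose, the latter by 2-fold or more. Without the block 1 fell and none rose, and the same held without replicate 2 or replicate 3. Among them Fabp7 fell by 2.04 (SE 0.18, adjusted p = 9.66e-06), with Sox10 under 1 CPM throughout. The part of such cells in the results was not tested.

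Some changes covered neighbouring genes. In the gene order of build GRCm38, 17 runs of at least 3 adjacent tested genes were all called at 2-fold or more in the same direction, 5 of them higher and 12 lower. The higher runs were 3 groups of histone genes on chromosome 13, Krt80, Krt7 and Krt87 on chromosome 15, and Lce1g, Crct1 and Tchh with Gm4202 on chromosome 3. Lower runs included Ecm2, Aspn and Ogn, then Cxcl14, Fbxl21 and Tgfbi, both on chromosome 13, and Zim1, Peg3 and Usp29 on chromosome 7. Adjacent genes can share reads where they overlap, since the strand setting of the counting is not given in the sources used here.

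Finally, 7 genes had at least 10 reads in every library of 1 group and at most 3 in every library of the other. Bglap, the osteocalcin gene, had 1, 0 and 0 reads in WT and 27, 13 and 19 in Bap1KO. Reads of 2010109A12Rik (3, 3 and 2 against 12, 14 and 10) and 4930412B13Rik (0, 3 and 2 against 11, 13 and 11) were also higher in Bap1KO. Galnt5, a glycosyltransferase gene, had 17, 20 and 39 reads in WT and 0, 1 and 2 in Bap1KO. Tril, an accessory gene of Toll-like receptors, had 19, 15 and 31 against 3, 1 and 1, and Rab3c, a vesicle GTPase gene, 10, 20 and 13 against 0, 3 and 1. Krt222 had 13, 10 and 17 against 0, 2 and 1, too few to be tested. All of these are near the lower limit of detection at this depth, so no fold is given.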

How the data were processed

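For each library the authors deposited an unnormalised count for 55335 Ensembl IDs. The 5 closing lines without a gene (11.1 to 12.3% of records here) were left out. Tools in the submitters' processing notes are STAR 2.6.1, HTSeq 0.9.1, CASAVA 1.8.2, DESeq2 and cutadapt 1.4.2, with build GRCm39, and the labels name paired-end TruSeq libraries. The annotation release and strand setting are not given in the sources used here. Symbols and gene order were taken from GENCODE M21 on GRCm38, which matched 55154 IDs.

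The count test was edgeR 4.0.16 (R 4.3.3) with TMM, filterByExpr (minimum count 10) on the 6 libraries, and a quasi-likelihood fit over all 12 with media batch as block (4 residual degrees of freedom, common coefficient of variation 0.0871), 2-sided, Benjamini-Hochberg adjusted over 15380 genes. SE is the fold change divided by the root of F. The prior count was 0.125 for fitted fold changes and 0.5 for per-batch ratios. An exact test on 3 pairs cannot go below p = 0.25, so none is given. The fitting code was tested on simulated data. Per the labels the replicate number is a shared media batch. Deviations from group means correlated over genes at 0.324, 0.459 and 0.248 within batches and at -0.37 to 0.0608 between them. The deviations of a group cancel out for every gene, so positive values within batches in part force the lower ones between them. Replicates differed beyond counting noise.

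The alternatives were no batch block, the 6 libraries alone, DESeq2 1.42.0, limma 3.58.1 (voom), other scalings and filters, and leaving out each batch pair. Named genes were the 12 highest and lowest called genes of at least 1 CPM, the 5 smallest p-values and the 5 most abundant at 2-fold, up to 4 called genes per list, the widest batch spans of at least 5 CPM, and genes on in 1 group alone. Bap1, Smn1, Gzme, Pdgfra and Ly6a were always named. Cdkn1a, Mdm2, Hist1h1c, Cdc20, Kif11, Hmgcs1, Ggps1, Acta2, Tgfbr1, Smad2, Smad3, Agrn, Ezh2, Pparg, the laminin chains and the type I, III and IV collagen chains were chosen after their values were seen. The 51 gene lists (1460 symbols, 1240 tested) and all members were chosen with earlier results of these data known. A few genes that the rule selects are not reported here.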

Additional observations from a re-analysis of the deposited data

How the results depend on the processing

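Without the batch as a replicate block, 1699 genes were called instead of 4848, 597 higher and 1102 lower, 548 of them at 2-fold or more. A filter of 1 CPM in 3 libraries left 554 genes at 2-fold or more, since low genes were not tested. Leaving out each batch pair gave 2938 to 3877 calls (1205 to 1506 higher, 1733 to 2371 lower, and 676 to 891 at 2-fold or more), and 2355 genes were called in each of the 3. The other tools, scalings and filters gave 4591 to 5207 calls, 1910 to 2361 of them higher and 2560 to 2978 lower. Against 2006 higher and 2842 lower in the main test, the excess of lower calls was smaller with RLE scaling (2357 and 2680). It was smaller too with DESeq2 (2258 and 2560), and larger with upper-quartile scaling (1918 and 2897). Of 235 genes chosen for naming, 99 kept direction and call under every alternative, and 123 lost their call without the block. Signs changed only for genes that were not called. Leaving out 1 batch pair gave log2 fold changes of -0.0617 to 0.0668 for Smn1, -1.09 to 0.991 for Iigp1, -1.04 to 0.949 for Ifit1, -1.16 to 0.617 for Oasl2, -1.22 to 0.527 for Gbp3, -0.781 to 0.918 for Ifit3, -1.05 to 0.695 for Usp18 and -0.108 to 0.0337 for Pparg. DESeq2 gave -0.0204 for Iigp1 and -0.107 for Usp18. Oasl2 was at 0.025 with the 6 libraries alone, 0.733 by voom and 0.837 without the block, and Gbp3 at 0.615 by voom and 0.681 without the block. The cause was not tested. Depth limits genes under 1 CPM, of which 13.1% were called.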
